A study of Mus musculus with 36 samples.

Results

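The 10 genes described here, Mdm2, Ccng1, Cdkn1a, Bax, Phlda3, Zmat3, Trp53inp1, Sesn1, Sesn2 and Gdf15, are targets of p53, and their levels were followed in mouse duodenal organoids. They were taken from a list of p53 regulators and effectors whose levels by duration within each treatment were already known, so the members were chosen by their counts at 24, 48 and 72 h within each treatment, and differences between durations are described without a test. All 10 were found among the 34197 genes of the count table, and all 10 were among the 11462 genes with enough counts to be tested. Phlda3 was the member closest to the filter, with 2 to 65 counts per library, and Ccng1 stood far inside it with 120 to 383.

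The organoids came from C57BL/6 mice and were not enriched for a cell type, and each of the 36 samples held 20 to 50 of them, kept under flow in a microfluidic chip. DAPT, which inhibits gamma-secretase and so keeps Notch receptors from being cleaved, was given in pulses with a period of 90 min (1.38 µM DAPT), 130 min (2 µM) or 170 min (2.6 µM, where the labels also name 2 µM), and the fourth treatment was DMSO. Each treatment lasted 24, 48 or 72 h with 3 libraries per combination, and the organoids had been passaged 3 days before a 24 h experiment, 2 days before 48 h and 1 day before 72 h. Period and DAPT concentration therefore cannot be told apart, and neither can hours on the chip and days between passage and loading. The labels used here do not say whether the DMSO medium was pulsed, nor whether the 3 libraries of a group came from separate animals or cultures, so each p-value rests on the spread among these samples, which may be technical.

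The p53 protein is a transcription factor that stress, such as DNA damage or failed ribosome assembly, stabilises. It switches on genes that stop the cell cycle, that promote cell death, that lower growth signalling and that shut p53 itself off again. In the intestine it is best known for the response of crypt cells to radiation and for the restraint of crypt cells with DNA damage.

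Levels are given as CPM, the counts of a gene scaled to the size of its library, with library sizes adjusted by TMM. Totals ran from 482741 to 1447330 counts per library with a median of 958749, so 1 count was worth about 1 CPM and members with few counts carry counting error. All 9 epithelial markers were found in all 36 libraries, with Epcam between 365 and 583 CPM. Summed markers reached at most 39.4 CPM for fibroblasts (8 genes, of which Vim gave up to 35.4), 22.3 CPM for immune cells (5 genes) and 8.37 CPM for endothelium (4 genes). In bulk samples fewer cells of a type and less RNA per cell cannot be told apart, and this holds for every difference below.

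The start regions of the members are shown because p53 acts through paired copies of a 10-base motif, the p53 decamer. RefSeq windows (GRCm38.p6) from 250 bases before to 50 bases after a transcription start were matched for 8 of the 10 members, with 11 windows in all, and both strands were read at once because the decamer motif reads the same on either one. A decamer lay in 5 of the 11 windows (45.5%), in those of Mdm2, Ccng1, Cdkn1a, Bax and Sesn1, against 2745 of 32851 windows of all genes (8.36%) and 12 of 61 windows (19.7%) of the other p53 targets listed for comparison. A pair of decamers without a mismatch and 0 to 13 bases apart was found in 1 member window, that of the upstream Cdkn1a start, and in 24 windows of all genes (0.0731%). With at most 1 of the 20 bases off, Ccng1 and Bax joined it, so that 3 member windows (27.3%) had a pair, against 359 windows of all genes (1.09%). The other p53 targets had such a pair in 2 of 61 windows (3.28%), and a pair without a mismatch in 0 of 61. Capitals mark each decamer and the near match that pairs with it.
Cdkn1a, chr17:29090729-29091028, plus strand, 250 bases before to 50 after the upstream start: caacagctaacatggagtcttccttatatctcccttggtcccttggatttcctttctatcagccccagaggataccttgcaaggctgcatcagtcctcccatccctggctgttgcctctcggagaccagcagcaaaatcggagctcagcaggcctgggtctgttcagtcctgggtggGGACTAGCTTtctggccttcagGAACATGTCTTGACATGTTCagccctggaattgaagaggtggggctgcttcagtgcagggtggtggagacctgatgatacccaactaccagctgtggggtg
Ccng1, chr11:40755422-40755521, minus strand: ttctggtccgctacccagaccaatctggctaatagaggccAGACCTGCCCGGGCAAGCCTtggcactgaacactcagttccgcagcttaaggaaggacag
Bax, chr7:45467050-45467148, minus strand: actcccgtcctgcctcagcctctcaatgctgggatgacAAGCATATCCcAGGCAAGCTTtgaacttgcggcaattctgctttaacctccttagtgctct
Mdm2, chr10:117710895-117710984, minus strand: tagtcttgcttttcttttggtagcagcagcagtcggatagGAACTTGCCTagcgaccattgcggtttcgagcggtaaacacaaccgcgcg
Sesn1, chr10:41887226-41887315, plus strand, the downstream start: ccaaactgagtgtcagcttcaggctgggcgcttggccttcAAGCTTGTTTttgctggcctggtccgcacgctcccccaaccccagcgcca

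In the Cdkn1a window the unmismatched pair was 12 bases apart, and its second decamer also abutted a near match. In Ccng1 the pair was joined without a gap and in Bax a single base separated its decamers. No decamer was found in the windows of Phlda3, Sesn2 and Gdf15, nor at the second starts of Cdkn1a and the first start of Sesn1. A match is a description of these letters and not a site of binding, and sites outside these windows were not searched.

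Over the 3 days of 130 min pulses 9 of the 10 members had a higher fitted level at 72 h than at 24 h and 1, Sesn1, had a lower one. The median log2 difference of the members was 0.93, beside 0.01 over all tested genes. The libraries at 72 h and 24 h did not overlap for Bax, Phlda3, Zmat3 and Gdf15, which were higher (background 5.71% of all genes), nor for Sesn1, which was lower (background 6.60%). They did not overlap with 170 min pulses for 4 members, Mdm2, Ccng1, Phlda3 and Zmat3, all higher (background 5.84%), in DMSO for Zmat3 alone, which was higher (background 6.79%), and with 90 min pulses for 0 of 10. The same median was 0.46 for 170 min, 0.29 for 90 min and 0.13 for DMSO. These differences chose the members and are not evidence for a response. Without replicate 2 of the 130 min group at 72 h, the library with the highest mean level of the members, the 130 min median was 0.71. Replicate 2 at 24 h weighed on the other medians, which without it were 0.48 for 90 min and 0.55 for DMSO, and without replicate 1 of every group the 90 min median was 0.058.

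**Figure D1:**
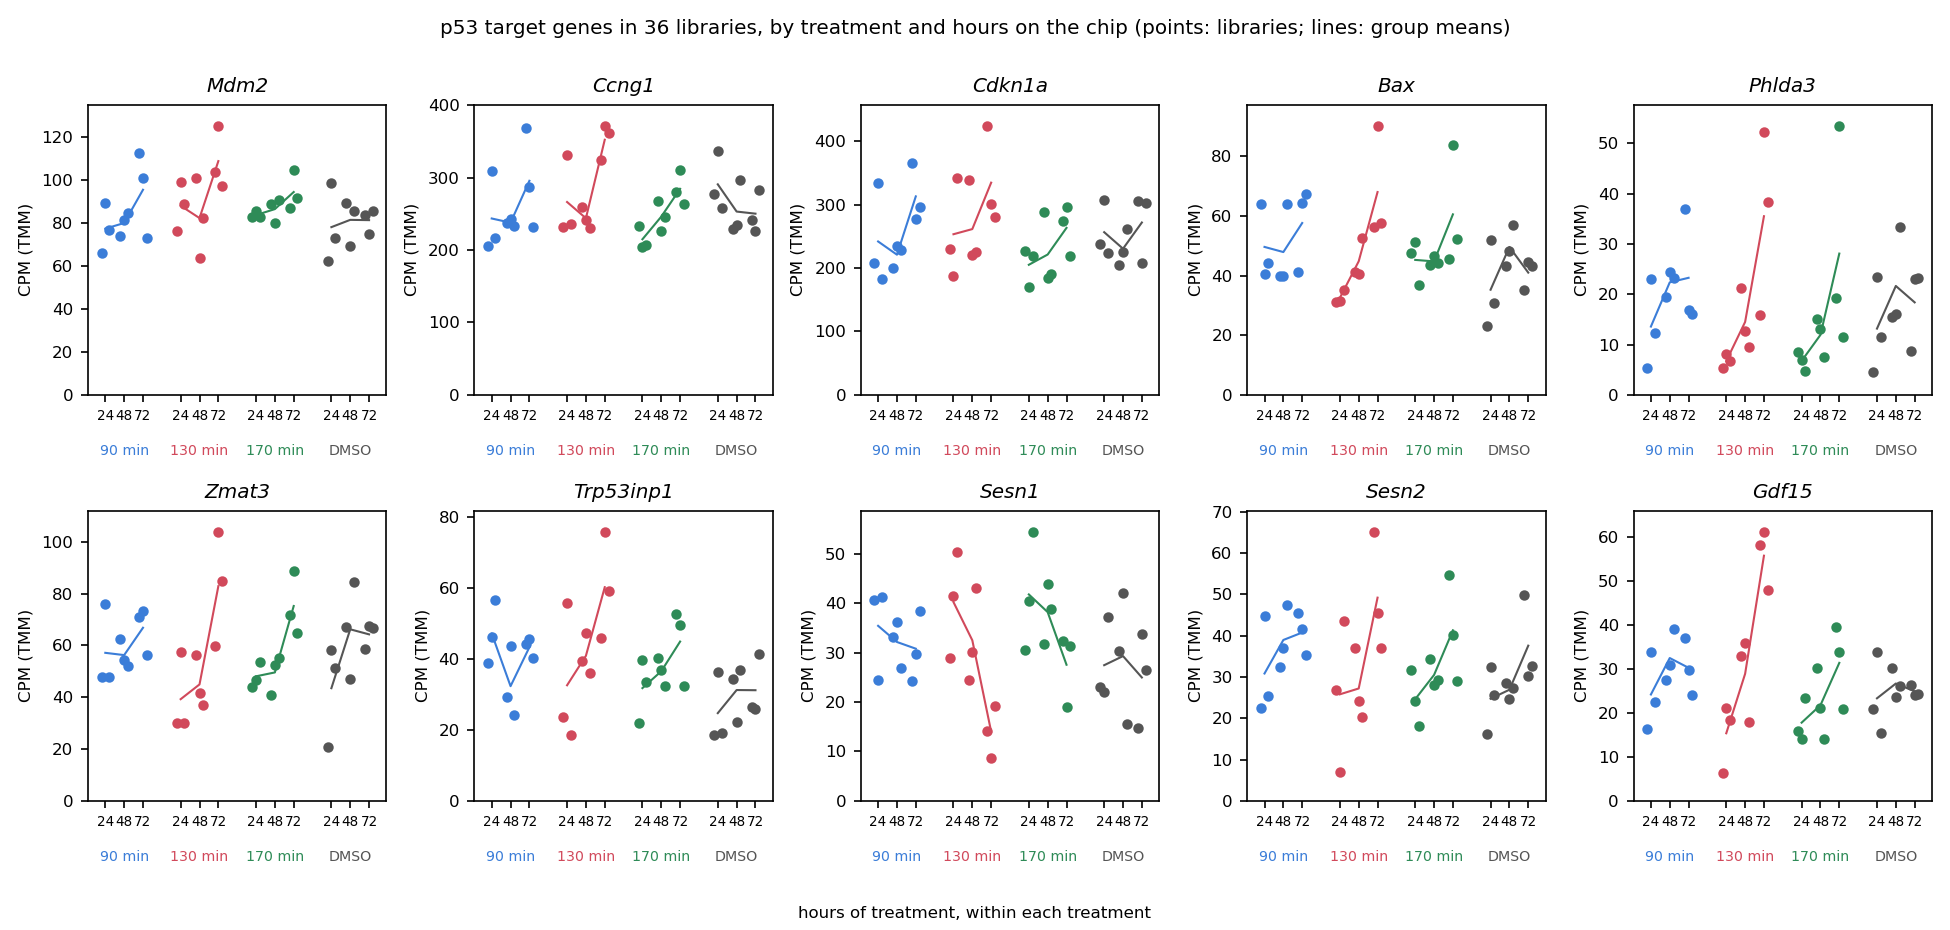
Level of each p53 target (CPM, linear axis from 0) in the 36 libraries, by treatment and hours of treatment, with a point for each library and lines through the group means (3 libraries each). The mean of the 130 min group at 72 h is the highest for every member but Sesn1, for which it is the lowest. Single libraries of other groups lie among its points, as for Bax and Sesn1. The 72 h DMSO libraries of Gdf15 lie between 24.0 and 26.4 CPM.

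The feedback arm of the pathway showed small differences. Mdm2 encodes the ubiquitin ligase that marks p53 for degradation. It had 76.1, 99.0 and 88.9 CPM in the 3 libraries of 130 min pulses at 24 h, 101, 63.5 and 82.5 CPM at 48 h, and 104, 125 and 97.4 CPM at 72 h. The 24 h and 72 h libraries overlapped by a narrow margin, and the log2 difference was 0.32 (SE 0.17), or 0.17 without replicate 2 at 72 h. With 170 min pulses all 3 libraries at 72 h (87.1, 104 and 91.5 CPM) were above all 3 at 24 h (82.8, 85.6 and 82.5 CPM; background 5.84% of all genes), with a log2 difference of 0.18 (SE 0.16). In DMSO Mdm2 had 62.4, 98.6 and 73.0 CPM at 24 h, 89.2, 69.4 and 85.7 CPM at 48 h and 83.5, 74.7 and 85.6 CPM at 72 h, so the 24 h libraries spanned the later ones.

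Trp53, which encodes p53 itself, averaged 165 ± 17.7 CPM at 24 h, 161 ± 15.0 CPM at 48 h and 164 ± 20.1 CPM at 72 h over the 4 treatments (SD, n = 12 each). Mdm4, the relative of Mdm2 that holds p53 inactive, averaged 113 ± 8.92 CPM with 130 min pulses at 72 h and 89.9 ± 11.0 CPM in DMSO at 72 h (SD, n = 3 each), a log2 difference of 0.33 (SE 0.19, edgeR adjusted p 0.559). Atm, the kinase that signals double-strand breaks to p53, had 21.1, 21.3 and 15.1 CPM in the 72 h libraries of 130 min pulses and 24.9, 21.3 and 15.9 CPM in those of DMSO, and these overlapped. Of the 17 tested genes in a list of 20 regulators of p53, 0 passed the threshold (edgeR, adjusted p under 0.05) between 72 and 24 h in any treatment. At an unadjusted p under 0.05 the count was 0 with 130 min pulses, 0 with 170 min, 1 with 90 min (Trp53bp1, -0.72, SE 0.32) and 0 in DMSO. Of all genes 7.19% were higher and 7.05% lower at that level with 130 min pulses, and 3.30% and 4.21% with 170 min. The share of all genes is not given here for 90 min and DMSO.

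The cell cycle arm has Cdkn1a, the p21 inhibitor of cyclin-dependent kinases, and Ccng1, cyclin G1, which works with a phosphatase subunit on Mdm2. Ccng1 had 231, 331 and 236 CPM with 130 min pulses at 24 h, 259.8, 241 and 231 CPM at 48 h, and 324, 371 and 362 CPM at 72 h. All of the 72 h libraries but replicate 1 lay above all 24 h libraries, and the log2 difference was 0.40 (SE 0.16). With 170 min pulses Ccng1 was higher in every 72 h library (279.6, 310.1 and 264 CPM) than in every 24 h library (233, 205 and 207 CPM; background 5.84% of all genes), a log2 difference of 0.41 (SE 0.15). In DMSO it had 277, 337 and 257 CPM at 24 h, 229, 234 and 296 CPM at 48 h and 242, 227 and 282 CPM at 72 h, which overlapped at a log2 difference of -0.22 (SE 0.16).

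Cdkn1a was spread widely within groups. It had 230.3, 188 and 342 CPM with 130 min pulses at 24 h, 339, 221 and 225 CPM at 48 h, and 424, 300.5 and 279.8 CPM at 72 h. Replicate 3 at 24 h exceeded both lower libraries at 72 h, and the log2 difference was 0.41 (SE 0.24). It was 0.17 without replicate 1 of every group and 0.75 without replicate 3 of every group. The corresponding log2 differences were 0.39 (SE 0.23) for 90 min, 0.37 (SE 0.24) for 170 min and 0.07 (SE 0.24) for DMSO. Over all 36 libraries Cdkn1a ranged between 169.7 and 424 CPM.

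Of the cell death arm, Bax, which permeabilises the outer mitochondrial membrane, had 31.1, 31.3 and 35.2 CPM with 130 min pulses at 24 h, 41.4, 40.4 and 52.6 CPM at 48 h and 56.3, 90.1 and 57.6 CPM at 72 h. Each duration lay wholly above the one before it, and the log2 difference of 72 h over 24 h was 1.10 (SE 0.27), or 0.80 without replicate 2 at 72 h. In DMSO Bax had 23.1, 51.9 and 30.7 CPM at 24 h, 43.4, 48.3 and 57.1 CPM at 48 h and 35.1, 44.5 and 43.4 CPM at 72 h, with replicate 2 at 24 h above all of the 72 h libraries. The log2 difference in DMSO was 0.18 (SE 0.29).

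Phlda3, a pleckstrin-homology protein that competes with Akt at the membrane, had the largest fitted differences of the members. It had 5.36, 8.08 and 6.71 CPM (5, 8 and 4 counts) with 130 min pulses at 24 h, 21.2, 12.7 and 9.56 CPM at 48 h, and 15.8, 52.3 and 38.4 CPM (9, 54 and 28 counts) at 72 h. The 24 h libraries were below all later ones, while the 72 h libraries differed among themselves more than 3-fold. The log2 difference of 72 h over 24 h was 2.42 (SE 0.59) with 130 min pulses and 2.13 (SE 0.56) with 170 min. With 170 min pulses Phlda3 had 8.52, 7.005 and 4.70 CPM at 24 h, 15.1, 13.1 and 7.56 CPM at 48 h and 19.2, 53.5 and 11.6 CPM at 72 h, so that replicate 2 alone was far above the rest. In DMSO it had 4.62, 23.4 and 11.5 CPM at 24 h, 15.5, 16.1 and 33.3 CPM at 48 h and 8.79, 23.1 and 23.3 CPM at 72 h, which overlapped (log2 difference 0.42, SE 0.57).

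Zmat3, a zinc-finger protein that binds RNA and alters splicing, had 30.0, 57.6 and 30.2 CPM with 130 min pulses at 24 h, 56.2, 41.6 and 37.1 CPM at 48 h and 59.8, 104 and 85.0 CPM at 72 h. The 72 h libraries were all above the 24 h ones (log2 difference 1.07, SE 0.27). It was the one member whose 72 h libraries were also all above its 24 h libraries in DMSO, with 58.6, 67.6 and 66.6 CPM at 72 h and 20.8, 58.4 and 51.2 CPM at 24 h, by a margin under 1 CPM (background 6.79% of all genes).

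Trp53inp1, a nuclear protein that promotes death and autophagy, had 23.6, 55.6 and 18.4 CPM with 130 min pulses at 24 h, 39.2, 47.3 and 35.9 CPM at 48 h and 45.7, 75.6 and 59.0 CPM at 72 h. Replicate 2 was the highest library at each duration, so the 24 and 72 h libraries overlapped. The log2 difference was 0.86 (SE 0.31), and 1.50 without replicate 2 at 24 h. In DMSO it had 18.5, 36.3 and 19.2 CPM at 24 h, 34.4, 22.3 and 36.9 CPM at 48 h and 26.4, 25.8 and 41.2 CPM at 72 h. The DMSO libraries overlapped across durations.

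The 2 sestrins, which restrain the growth kinase mTORC1, were opposite in sign. Sesn1 had 28.9, 41.4 and 50.3 CPM with 130 min pulses at 24 h, 24.4, 30.0 and 43.0 CPM at 48 h and 14.1, 8.72 and 19.2 CPM (8, 9 and 14 counts) at 72 h. All of the 72 h libraries were below all of the earlier ones (log2 difference of 72 h over 24 h -1.54, SE 0.38). In DMSO Sesn1 had 23.1, 22.1 and 37.2 CPM at 24 h, 30.3, 42.1 and 15.5 CPM at 48 h and 14.6, 33.8 and 26.4 CPM at 72 h, with overlap at every duration. Sesn2, which also responds to ATF4 in the integrated stress response, had 26.8, 7.07 and 43.6 CPM with 130 min pulses at 24 h, 37.1, 24.3 and 20.3 CPM at 48 h and 65.1, 45.6 and 37.0 CPM at 72 h. Replicate 2 at 24 h rests on 7 counts, and the Sesn2 libraries of 24 and 72 h overlapped (log2 difference 1.00, SE 0.37). Without that library the difference was 0.49, and without replicate 3 of every group it was 1.67. The log2 difference of Sesn2 was positive in the other treatments as well, at 0.43 (SE 0.35) for 90 min, 0.79 (SE 0.35) for 170 min and 0.52 (SE 0.38) for DMSO.

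Gdf15, a secreted stress cytokine that is likewise induced by ATF4, had 6.43, 21.2 and 18.4 CPM with 130 min pulses at 24 h, 32.9, 35.8 and 17.9 CPM at 48 h and 58.1, 61.1 and 48.0 CPM at 72 h. The 72 h libraries stood clear of all earlier ones, at a log2 difference over 24 h of 1.87 (SE 0.35). With 170 min pulses it had 15.8, 14.0 and 23.5 CPM at 24 h, 30.1, 21.0 and 14.0 CPM at 48 h and 39.5, 33.7 and 20.9 CPM at 72 h, where replicate 3 fell inside the 24 h range. In DMSO Gdf15 had 20.8, 33.7 and 15.4 CPM at 24 h, 30.3, 23.5 and 26.2 CPM at 48 h and 26.4, 24.0 and 24.3 CPM at 72 h. The DMSO libraries of 72 h lay within the range of those of 24 h (log2 difference 0.07, SE 0.36).

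**Figure D2:**
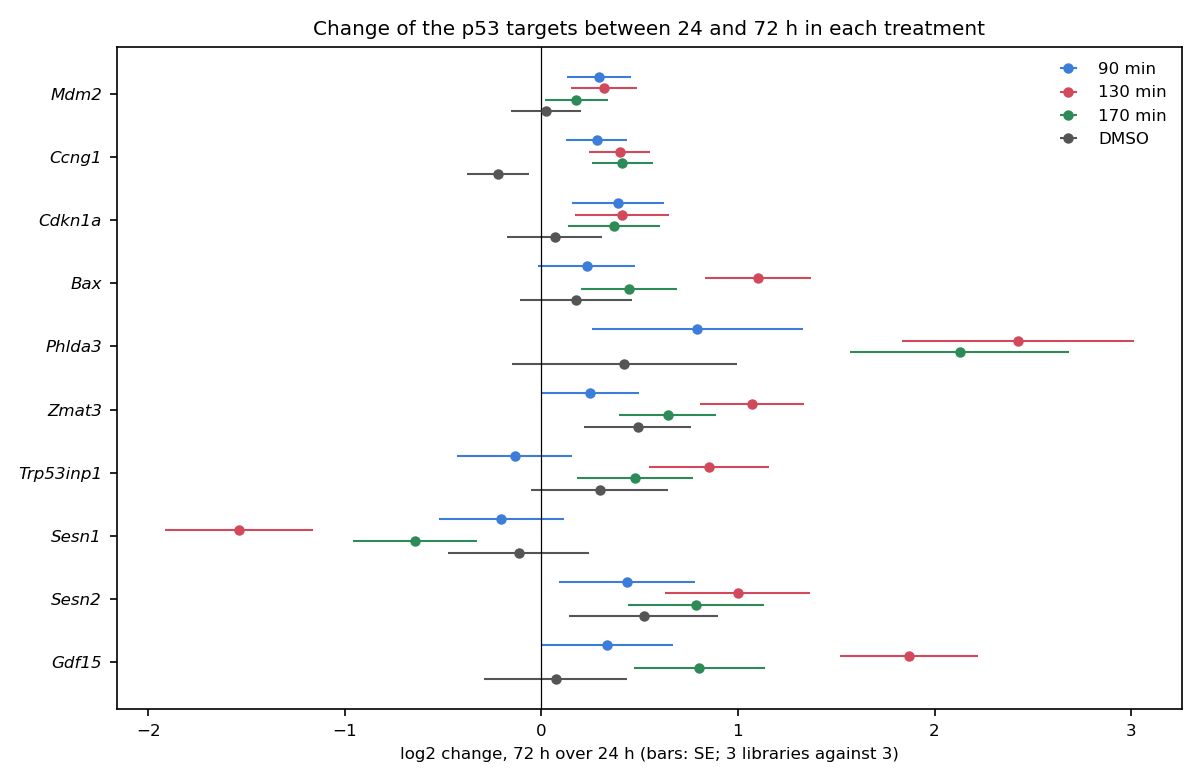
Fitted log2 difference of 72 h over 24 h (horizontal axis) for each p53 target (rows) in each treatment, with bars of 1 SE (3 libraries against 3). With 130 min pulses Phlda3 (2.42), Gdf15 (1.87) and Bax (1.10) are farthest to the right and Sesn1 (-1.54) is farthest to the left, while the DMSO values lie between -0.22 and 0.52.

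With 130 and 170 min pulses the means of the members at 48 h were nearer those at 24 h than those at 72 h. This was not general with 90 min pulses or in DMSO, where several members had 48 h means nearer those at 72 h. With 130 min pulses the median log2 difference of the members between 48 and 24 h was 0.17, and the libraries did not overlap for Bax and Phlda3 alone (background 4.99% of all genes higher). The median was 0.15 for 170 min, near 0 for 90 min and 0.13 for DMSO, and in these 3 treatments no member had libraries that did not overlap. Leaving out replicate 1 of every group turned the 130 min value to -0.11.

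The members were not chosen on the comparison of DAPT pulses with DMSO alone, but earlier results of it were known. It uses the same libraries as the differences between durations that chose the members, so its member counts are not independent of that choice. In 15 comparisons between treatments, 9 at single durations and 6 averaged over durations, 0 of 150 member tests passed the threshold (edgeR quasi-likelihood test, Benjamini-Hochberg over 11462 genes, two-sided), and the lowest adjusted p was 0.286. At an unadjusted p under 0.05 there were 15 of 150, where the share of all genes ran from 0.995% to 12.4% in the comparisons detailed below. DESeq2 called 0 as well, and gave no adjusted p for 38 of the tests. Over all tested genes edgeR called 0 in each of these 15 comparisons, while DESeq2 called genes in 5 of them. Those were 7 genes higher for 130 min over DMSO and 18 lower for 90 over 130 min and 4 lower for 170 over 130 min, all averaged over durations, and 1 lower each for 90 min over DMSO at 24 h and 130 min over DMSO at 72 h.

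The 72 h comparison of 130 min pulses with DMSO held 6 of those 15. The log2 difference was 1.17 (SE 0.33) for Gdf15, 0.97 (SE 0.31) for Trp53inp1, 0.74 (SE 0.26) for Bax, 0.50 (SE 0.16) for Ccng1, 0.44 (SE 0.17) for Mdm2 and -0.92 (SE 0.39) for Sesn1, with edgeR adjusted p between 0.286 and 0.413. So 6 of 10 members were at an unadjusted p under 0.05, beside 1179 of all 11462 genes (10.3%). The 130 min libraries at 72 h also entered the choice of the members, so the member counts here are not independent of it. For Gdf15, Trp53inp1, Bax, Ccng1 and Mdm2 all 3 libraries of 130 min pulses lay above all 3 of DMSO, a pattern that 840 of all genes showed (7.33%). Gdf15 averaged 55.7 CPM with 130 min pulses and 24.9 CPM in DMSO, and Sesn1 averaged 14.0 CPM with 130 min pulses and 25.0 CPM in DMSO, where 1 DMSO library (14.6 CPM) lay among the treated ones. Cdkn1a (0.30, SE 0.24), Zmat3 (0.39, SE 0.25), Sesn2 (0.40, SE 0.35) and Phlda3 (0.95, SE 0.50) were above 0 without reaching that level. Leaving out single libraries or a replicate number gave between 2 and 8 members at an unadjusted p under 0.05, and never a call. Without replicate 1 of 130 min at 72 h the difference was 0.10 for Cdkn1a and 0.17 for Sesn2. Without replicate 2 of 130 min at 72 h it was 0.45 for Bax, 0.53 for Phlda3 and 0.17 for Zmat3. Without replicate 2 of every group it was 0.62 for Trp53inp1, 0.25 for Mdm2 and -0.32 for Sesn1.

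The other periods gave smaller values at 72 h. With 90 min pulses all 10 fitted differences from DMSO were positive, with a median of 0.23, but 0 of 10 were at an unadjusted p under 0.05 (background 0.995%). With 170 min pulses 9 of 10 were positive at a median of 0.23, and 1 of 10, Bax (0.56, SE 0.25, edgeR adjusted p 1.00), was at an unadjusted p under 0.05 (background 2.17%). All 3 libraries of 170 min pulses lay above all 3 of DMSO for Mdm2 and Bax (background 4.78%). The 3 comparisons share the DMSO libraries, and same-numbered libraries of 130 and 170 min varied together.

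**Figure D3:**
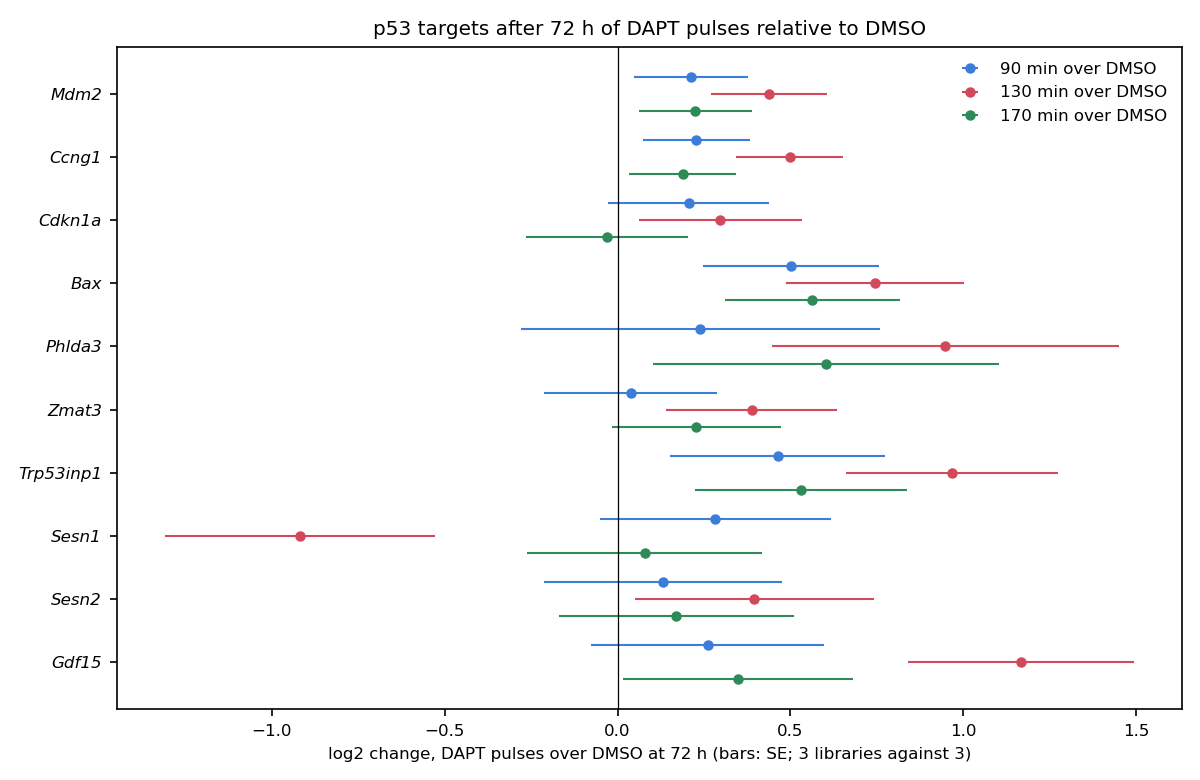
Fitted log2 difference of each DAPT period over DMSO at 72 h (horizontal axis) for each p53 target (rows), with bars of 1 SE (3 libraries against 3). The 130 min values are the farthest from 0 for all members but none passes the threshold, with Gdf15 at 1.17 and Sesn1 at -0.92.

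At the earlier durations few members stood apart from DMSO. At 24 h Trp53inp1 was higher with 90 min pulses, with 38.8, 46.0 and 56.4 CPM against 18.5, 36.3 and 19.2 CPM in DMSO (log2 difference 0.90, SE 0.33, edgeR adjusted p 0.458), and it was the 1 member of 10 at an unadjusted p under 0.05 (background 9.69%). Ccng1 was lower at 24 h with 170 min pulses, with 233, 205 and 207 CPM against 277, 337 and 257 CPM in DMSO (-0.44, SE 0.16, edgeR adjusted p 0.312, background 12.4%). At 48 h Zmat3 had 56.2, 41.6 and 37.1 CPM with 130 min pulses and 67.1, 47.1 and 84.5 CPM in DMSO, which overlapped (-0.55, SE 0.26, edgeR adjusted p 1.00, background 2.47%). These single-duration differences are all short of a call, and at 24 h counts of 1 of 10 members are near the share of all genes.

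Averaged over the 3 durations, Trp53inp1 was above DMSO in all 3 periods, with log2 differences of 0.47 (SE 0.18) for 90 min, 0.58 (SE 0.19) for 130 min and 0.37 (SE 0.18) for 170 min, and edgeR adjusted p-values of 0.627, 0.663 and 0.582. It was the 1 member at an unadjusted p under 0.05 with 90 min pulses (background 7.92%) and with 130 min (background 5.49%), and there were 0 with 170 min (background 8.64%). Without replicate 2 of every group the 130 min difference was 0.29. Its mean was 40.9 CPM with 90 min pulses, 44.5 CPM with 130 min, 37.7 CPM with 170 min and 29.0 CPM in DMSO. Between periods, 170 min pulses had less Ccng1 (-0.21, SE 0.09) and Cdkn1a (-0.28, SE 0.14) and more Sesn1 (0.45, SE 0.20) than 130 min pulses, all 3 at an unadjusted p under 0.05 (background 12.0%) with edgeR adjusted p-values between 0.374 and 0.408. In a model with the paired libraries of these 2 treatments as blocks, Cdkn1a had -0.28 (SE 0.07, edgeR adjusted p 0.125), and the count at an unadjusted p under 0.05 was 4, with Gdf15 added (background 15.5%).

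A list of 50 other p53 targets, none of them members, was tested between durations. It was chosen with earlier results of these data known, and it uses the same libraries that chose the members. Its counts, here and in the next paragraph, are therefore not independent of that choice. Of its 45 tested genes 0 passed the threshold in any treatment (edgeR), while 24 of all 11462 genes (0.209%) did with 130 min pulses, 7 of them higher and 17 lower. DESeq2 called 33 higher and 115 lower of all genes there. At an unadjusted p under 0.05, 13 of the 45 were higher and 1 was lower with 130 min pulses (background 7.19% and 7.05%), and 6 were higher and 0 lower with 170 min (background 3.30% and 4.21%). With 90 min pulses there were 0 and in DMSO 1 higher and 1 lower. The median log2 difference of the 45 was 0.21 with 130 min pulses, 0.11 with 170 min, 0.08 with 90 min and 0.01 in DMSO. DESeq2 called 1 of them, Abhd4, with 130 min pulses.

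The gene of that list with the smallest p with 130 min pulses was Abhd4, a phospholipid hydrolase, with a log2 difference of 72 over 24 h of 0.72 (SE 0.18, edgeR adjusted p 0.0647). With 170 min pulses it was Pvt1, a long non-coding RNA, at 1.11 (SE 0.33, edgeR adjusted p 0.553). Averaged over treatments 10 of the 45 were higher and 0 lower at an unadjusted p under 0.05 (background 7.18% and 7.63%), led again by Pvt1 at 0.62 (SE 0.17, edgeR adjusted p 0.0928). For 130 min pulses against DMSO at 72 h, 10 were higher and 2 lower (background 5.50% and 4.79%), led by Kitl, the ligand of the receptor Kit, at 0.51 (SE 0.17, edgeR adjusted p 0.314).

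Of 10 tested genes of the Bcl2 family besides Bax, 7 were higher at 72 h than at 24 h with 130 min pulses, at a median of 0.10, 0 passed and 3 were higher at an unadjusted p under 0.05 (background 7.19%), led by the survival gene Bcl2l1 (0.47, SE 0.18, edgeR adjusted p 0.224). Of 31 cell cycle genes that p53 represses through the DREAM complex, 25 were higher at a median of 0.18, 0 passed and 3 were higher at an unadjusted p under 0.05 (background 7.19%). Mybl2 had the smallest p of these (1.15, SE 0.42, edgeR adjusted p 0.184). Of 21 genes of the integrated stress response, the pathway that Sesn2 and Gdf15 share with p53, 19 were higher at a median of 0.31, 0 passed and 2 were higher at an unadjusted p under 0.05 (background 7.19%), led by Wars (0.54, SE 0.16, edgeR adjusted p 0.111).

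Markers of cell identity moved in the same libraries. With 130 min pulses all 13 tested enterocyte markers had lower fitted values at 72 h than at 24 h, with a median log2 difference of -1.22 and 11 of 13 lower at an unadjusted p under 0.05 (background 7.05%), 0 of which passed, and Fabp2, an intestinal fatty acid-binding protein, led them (-1.22, SE 0.28, edgeR adjusted p 0.0614). Of 12 fetal-like and YAP markers 11 were higher at a median of 0.78 and 8 were higher at an unadjusted p under 0.05 (background 7.19%), again with 0 passing. Msln had the smallest p of these (1.43, SE 0.43, edgeR adjusted p 0.111). Among 170 min libraries 12 of 13 enterocyte markers were lower at 72 h at a median of -0.63, with 3 at an unadjusted p under 0.05 (background 4.21%), led by Apoa4, an apolipoprotein (-2.21, SE 0.76, edgeR adjusted p 0.609). There 9 of 12 fetal-like markers were higher at a median of 0.58, with 6 at that level (background 3.30%) and 0 of either list passing. In DMSO 12 of 13 enterocyte markers were lower at a median of -0.24 and 11 of 12 fetal-like markers were lower at -0.32. Over the 14 enterocyte markers the mean log2(CPM + 1) ran from 5.09 to 6.996 in the 3 libraries of 130 min at 72 h and from 7.25 to 8.42 in those at 24 h, and in DMSO from 6.98 to 7.08 at 72 h and from 7.12 to 7.57 at 24 h. The library with the highest mean of the members, replicate 2 of 130 min at 72 h (6.37), had the lowest enterocyte mean of all 36 and the highest fetal-like mean (6.86). The stress response mean was highest in replicate 1 of 130 min at 72 h (7.47), which also had the most Cdkn1a and Sesn2. The part of these markers in the values of the members was not tested.

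**Figure D4:**
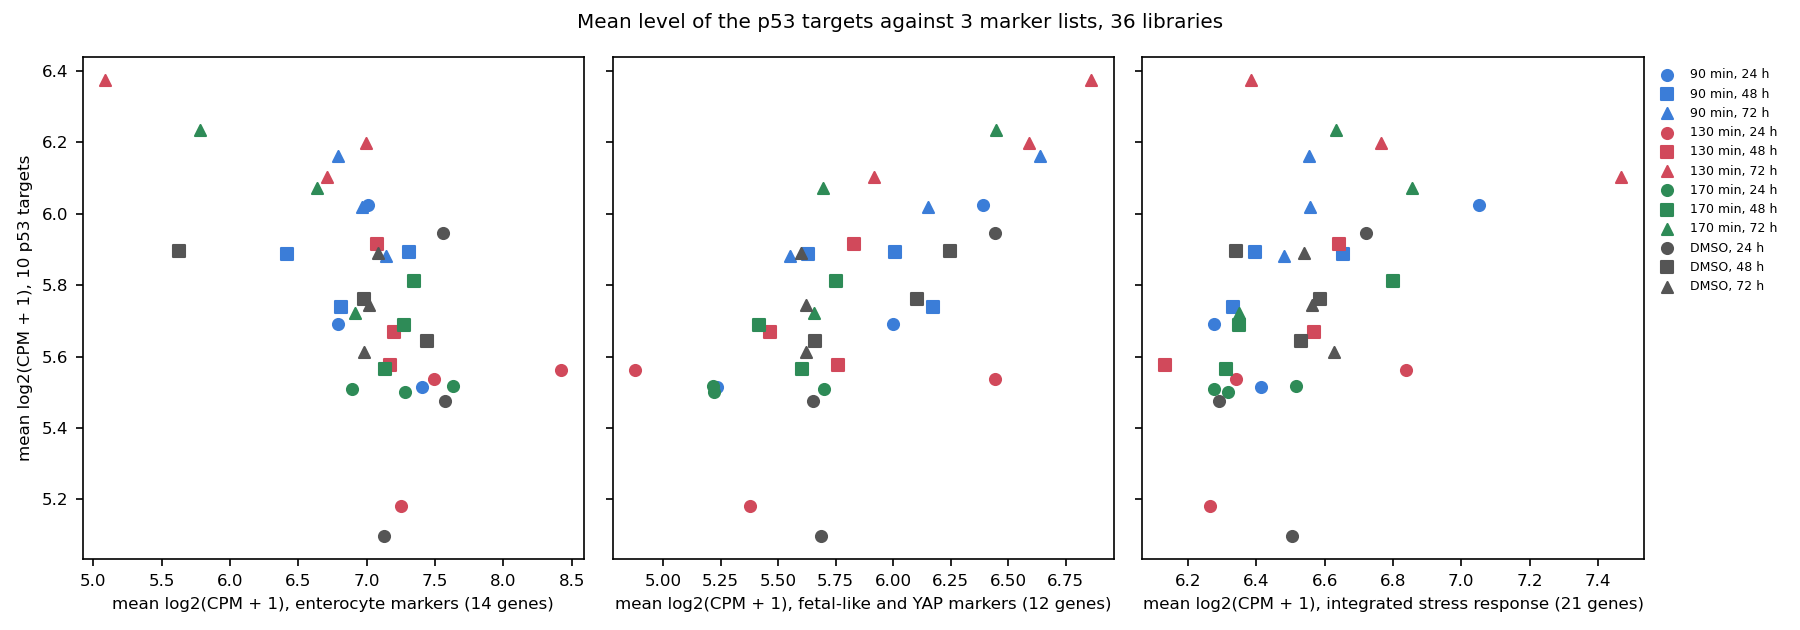
Mean log2(CPM + 1) of the 10 p53 targets (vertical axis) against that of 14 enterocyte markers, 12 fetal-like and YAP markers and 21 integrated stress response genes (horizontal axes), with a point for each of 36 libraries, coloured by treatment and shaped by duration. The 130 min library at 72 h with the highest p53 target mean (6.37) is at the far left for enterocyte markers (5.09) and at the far right for fetal-like markers (6.86).

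Over the 36 libraries the members varied together with Sesn1 as the exception. Pearson's r of log2(CPM + 1) was positive in all 36 pairs without Sesn1, between 0.12 and 0.77, and negative in all 9 pairs with it, between -0.68 and -0.32. These are descriptions, since the libraries share treatments, durations and scaling. Phlda3 followed the mean z-score of the other members most closely (r = 0.80, rho = 0.76, n = 36), then Gdf15 (0.75 and 0.77) and Zmat3 (0.74 and 0.69), while Sesn1 had -0.69 and -0.66. After the group means were taken out, r was 0.76 for Phlda3, 0.73 for Mdm2, 0.63 for Zmat3 and Ccng1 and -0.52 for Sesn1, but 0.16 for Bax and 0.13 for Sesn2. Without the 2 libraries farthest from the median r was 0.74 for Phlda3 and 0.59 for Mdm2.

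The members split in how they followed the marker lists. The r with the stress response mean was 0.72 for Cdkn1a, 0.62 for Gdf15 and 0.59 for Sesn2, against 0.09 for Bax and 0.18 for Zmat3. The r with the fetal-like mean was 0.78 for Ccng1, 0.73 for Phlda3, 0.66 for Zmat3 and 0.12 for Sesn2. Sesn1 was the member with a positive r with the enterocyte mean (0.72), and the other 9 ranged from -0.66 for Phlda3 to -0.18 for Cdkn1a. The r with log2 of the library total was between -0.48 for Cdkn1a and 0.38 for Sesn1.

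**Figure D5:**
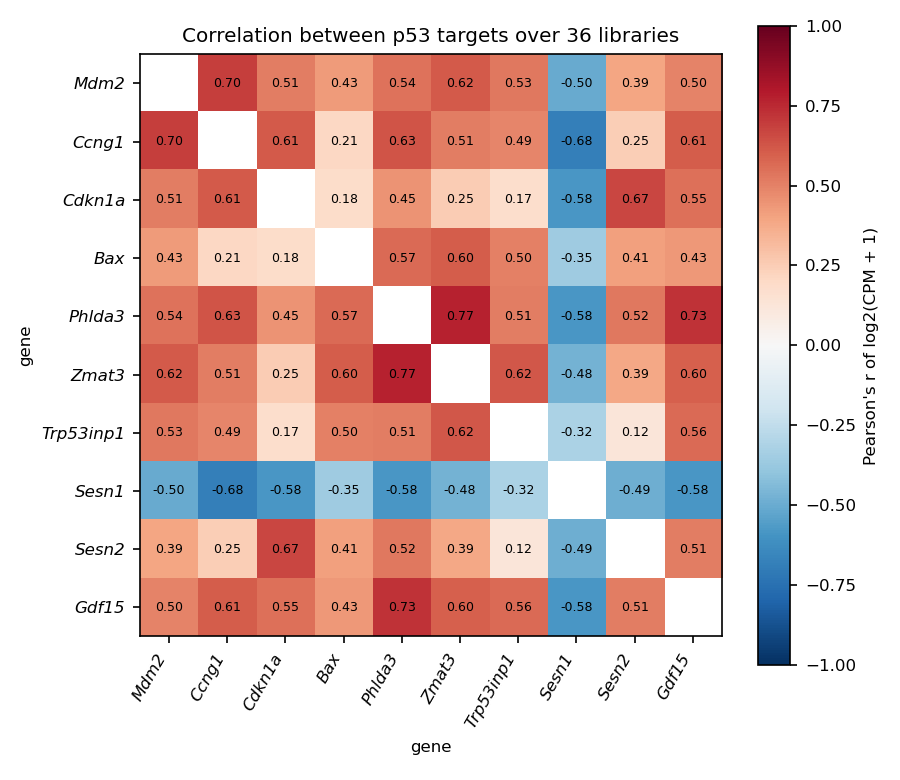
Pearson's r of log2(CPM + 1) between the 10 p53 targets over 36 libraries, as a colour scale from -1 (blue) to 1 (red) with values printed. The row of Sesn1 is blue throughout, from -0.68 with Ccng1 to -0.32 with Trp53inp1, and Phlda3 with Zmat3 (0.77) is the deepest red.

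The 6 genes outside the set with the closest pattern, by Pearson's r of log2(CPM + 1) with the mean z-score of all 10 members over 36 libraries, were Clcf1 (r = 0.84, rho = 0.90), Inka2 (0.83 and 0.83), Dsg3 (0.83 and 0.80), Ahnak2 (0.82 and 0.71), Myo1c (0.81 and 0.72) and 4930523C07Rik (0.81 and 0.75). Without the 2 libraries farthest from the median r was between 0.73 and 0.80. Clcf1, a cytokine of the interleukin-6 family, averaged 60.8 ± 42.2 CPM with 130 min pulses at 72 h and 32.6 ± 9.47 CPM in DMSO at 72 h (SD, n = 3 each). Dsg3, a desmosomal cadherin, averaged 23.0 ± 20.1 CPM with 130 min pulses at 72 h and 3.84 ± 3.14 CPM in DMSO at 72 h, on 1 to 47 counts per library. These genes were picked as the most alike among all tested genes that are no members, so their r is a description.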

How the data were processed

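Polyadenylated RNA of 36 organoid samples was sequenced with the Sort-seq method, per the labels' protocols. The submitters' processing notes name the aligner STAR 2.7.8a and, for the molecular barcodes, UMI-tools 1.1.1. The deposited values are raw whole-number counts, 1 per gene symbol in each library, and the values show no scaling by the authors. For the genome build and annotation, nothing is given in the sources used here.

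All 36 columns were mapped to a group by their names, with 0 left over. The count model used edgeR 4.0.16 in R 4.3.3 (filterByExpr, TMM, 12 group coefficients, robust quasi-likelihood, 24 residual degrees of freedom, biological coefficient of variation 0.145). P-values were adjusted over 11462 genes by the Benjamini-Hochberg method, with 0.05 as the threshold. Correlations and marker means use log2(CPM + 1). Every member is named, then Trp53, Mdm4 and Atm, up to 4 passing genes of a list or else the gene with the smallest p, and the 6 genes most alike. The gene with the smallest p is not given for every list and comparison. The members and lists were chosen with earlier results of these data known. Alternatives were RLE size factors, no filter, the library total as a covariate, DESeq2 1.42.0, replicate blocks and leaving out libraries. Promoter windows are RefSeq's, and gene positions in the count table were not used.

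Replicate numbers come from the sample titles. Deviations from group means correlated over 0.1 in all same-numbered pairs of 130 and 170 min at all 3 durations (0.24 to 0.61), and of 90 min and DMSO at 2 of 3 durations. No other pair of treatments did at any duration. Within 130 min and within 170 min the 48 and 24 h libraries also did. For 130 and 170 min every same-numbered r exceeded those of differently numbered pairs. For 90 min and DMSO a differently numbered pair exceeded the lowest same-numbered one at 24 h (0.21 against 0.14) and 48 h (0.36 against 0.18). It did so within 170 min too (0.34 against 0.15), so a link by number is not shown in these cases. The 130 and 170 min libraries are thus not independent of one another. Their comparisons with DMSO run from this linked pair to another treatment, so whatever the linked libraries share cannot be told apart from DAPT there. The labels used here do not say what the link is. The most alike libraries (r = 0.975) had identical counts in 42.5% of genes, so none was a repeat.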

Additional observations from a re-analysis of the deposited data

Results flagged for a closer look

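All 10 members were looked at in each of the 3 DAPT periods. In 3 members every library of a DAPT period was on one side of the DMSO mean at 72 h and every library was on the other side at 24 h. The share of all genes with this pattern was not counted, and the 24 and 72 h values also chose the members. The difference between the durations was not tested. Gdf15 with 130 min pulses had a mean log2 difference from DMSO of 1.12 at 72 h and -0.65 at 24 h, which differ by 1.78. Sesn1 with 130 min pulses had -0.78 at 72 h and 0.54 at 24 h, which differ by -1.32. Ccng1 with 170 min pulses had 0.19 at 72 h and -0.43 at 24 h, which differ by 0.62. The rule took the DMSO mean and not the single DMSO libraries. Treated and DMSO libraries overlapped for Gdf15 at 24 h, for Sesn1 at both durations and for Ccng1 at 72 h. They did not overlap for Gdf15 at 72 h and Ccng1 at 24 h. The 24 h values of Gdf15 rest on 6 to 21 counts in the 130 min libraries and 9 to 26 in those of DMSO.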

How the results depend on the processing

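The count of members past the threshold was 0 in all 309 alternative values over the 15 treatment comparisons. Single members were followed only with 130 min pulses, against DMSO at 72 h and between 72 and 24 h. Trp53inp1 was also followed averaged over durations in each period. No difference among these changed sign in 384 alternative values, while the median of the members, which has no test, changed sign in 11 of 106. In total 24 alternative values were counted as moved and 957 were not, but those 957 were not all close to the original. With 130 min pulses against DMSO at 72 h, Sesn1 went from -0.92 to -0.32 without replicate 2 of every group. Cdkn1a went from 0.30 to 0.10 there without replicate 1 of 130 min at 72 h. Gdf15 stayed between 1.06 and 1.26 in that comparison when libraries were left out. None of these values was counted as moved. The replicate block within durations, the block across durations and the block of paired libraries each gave 0 member calls, and with the pairing as a block the 170 over 130 min comparison called 0 of 11462 genes. Other p53 targets higher at 72 than at 24 h numbered 1 without a filter with 130 min pulses (Abhd4), with 170 min (Pvt1) and averaged (Pvt1), and 1 with DESeq2 with 130 min pulses (Abhd4). Leaving out libraries gave 0 to 2 for 130 min, with 2 only without replicate 2 of 130 min at 24 h (Eda2r and Kitl, named after their values were seen), and 0 to 1 averaged, with 1 without replicate 1 of 130 min at 24 h, replicate 3 of 130 min at 72 h or replicate 2 of DMSO at 24 h. Over all alternatives the median of the members at 72 over 24 h ranged from 0.67 to 0.96 with 130 min pulses and 0.37 to 0.62 with 170 min. It ranged from 0.058 to 0.48 with 90 min and -0.022 to 0.55 in DMSO, the last high without replicate 2 at 24 h. At 48 over 24 h it ranged from -0.11 to 0.32 with 130 min pulses, 0.027 to 0.21 with 170 min, -0.07 to 0.18 with 90 min and -0.0093 to 0.51 in DMSO. Leaving out replicate 2 of both 130 and 170 min at 72 h, chosen after seeing the data, gave 0.71 for 130 min. The cause of these moves was not tested. Counts of 2 to 65 per library limit Phlda3 most.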
